A study of Mus musculus with 14 samples.

Results

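External total body irradiation (TBI) was compared with no treatment in bone marrow cells sorted by a fluorescent endothelial reporter. All libraries whose sample title names caesium TBI (5 libraries, replicates 1, 3, 4, 5 and 6) were set against all libraries whose title names no treatment (4 libraries, replicates 1 to 4), so 9 of the 14 libraries of the series entered the comparison. Every mouse, treated or not, carried a Cre recombinase under the Cdh5 promoter and a Rosa26 TdTomato reporter, in which Cre switches on a red fluorescent protein for the life of the cell and its descendants. TBI mice received 500 cGy from a caesium source and their marrow was taken 8 days later. The sorted gate was lineage-negative, CD45-negative and TdTomato-positive. The Cdh5 promoter is active in endothelial cells, and a Cre that was active there before birth also marks blood cells descended from blood-forming endothelium. The labels do not say whether this Cre is inducible. They also do not say that each library came from a separate mouse, so the p-values below measure the spread between these samples, which may in part be technical.

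Marrow is held together by a vascular and stromal scaffold, in which endothelial cells and perivascular stromal cells make factors such as CXCL12 and stem cell factor that keep blood stem cells in place. Ionising radiation breaks DNA, activates the p53 pathway and depletes dividing blood progenitors, while cells that survive refill the marrow over the following days. Red cell precursors mature through a burst of divisions in which haem synthesis, iron uptake, globins and a specialised membrane skeleton are switched on in turn.

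Total counts ranged from 24787500 to 31077600 in the untreated libraries and from 16412800 (replicate 6) to 24942000 in the TBI libraries. TBI replicate 6 stood apart from the other TBI libraries. Its log2 profile had Pearson correlations of 0.921 to 0.930 with them across tested genes, against 0.974 to 0.985 among replicates 1, 3, 4 and 5 and 0.936 to 0.970 among the untreated libraries. The 60 erythroid genes of 4 lists (globins, haem synthesis, membrane, regulators) held 1.70% to 2.57% of all counts in untreated libraries and 4.37% to 6.60% in TBI replicates 1, 3, 4 and 5. In TBI replicate 6 they held 21.6%, of which the globin list made 15.7%. Results below use all 5 TBI libraries, and for named genes whose call changed or whose fold moved by more than 1.5 times the value without replicate 6 is given beside them. By Xist and Y-linked genes, untreated replicates 1 and 2 and TBI replicates 1 and 6 came from animals with a Y chromosome, and the other 5 libraries from animals without one. Both groups held both kinds.

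The endothelial identity of the sort was checked with 25 pan-endothelial genes. Cdh5, whose promoter drives the reporter's Cre, had 0 to 6 counts in any library and was not tested. Cldn5, Sox17, Flt1 and Mmrn2, other defining endothelial genes, had mean levels of at most 0.0336 CPM (counts scaled to a common library size of 1e6) in either group, below what 3 counts are worth in any library. Of the 25 genes 16 passed the filter on low counts. In the untreated libraries the gene with the most counts was Mpo, the peroxidase of neutrophil precursors, at 8159 CPM on average, followed by Prss34, a protease of basophils, at 4549 CPM. In TBI replicates 1, 3, 4 and 5 the genes with the most counts were Hba-a1 and Hbb-bs, which encode the adult globin chains, at 11250 and 11070 CPM. The most abundant transcripts were thus those of blood cells, against the endothelial label, and the cells are called here by their sort. In such bulk samples fewer cells of a type and less RNA per cell cannot be told apart.

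Across 18535 tested genes, 3251 differed between TBI and untreated libraries at an adjusted p under 0.05, which is 17.5% (edgeR quasi-likelihood test with Benjamini-Hochberg adjustment). In TBI 1374 genes were higher (7.41% of those tested) and 1877 were lower (10.1%). For 3015 of the called genes the CPM of the 2 groups did not overlap, whereas 22.5% of all tested genes, called or not, showed no overlap (9.95% higher and 12.6% lower in TBI). The median log2 fold change over all tested genes was -0.01. Among called genes, 710 rose by more than 1 on the log2 scale and 1633 fell by more than 1. The genes with the smallest p-values were mostly lower: 93 of the first 100 fell and 7 rose. Without TBI replicate 6 the counts were 1732 higher and 2273 lower of 18334 tested, and 3169 of the 3251 genes kept their call and direction. A fit over all 14 libraries of the series, whose spread includes the other treatments, called 198 genes higher and 728 lower. Without scaling factors the median over all genes moved to -0.26 and 25.5% of called genes were higher, against 42.3% with them.

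**Figure D1:**
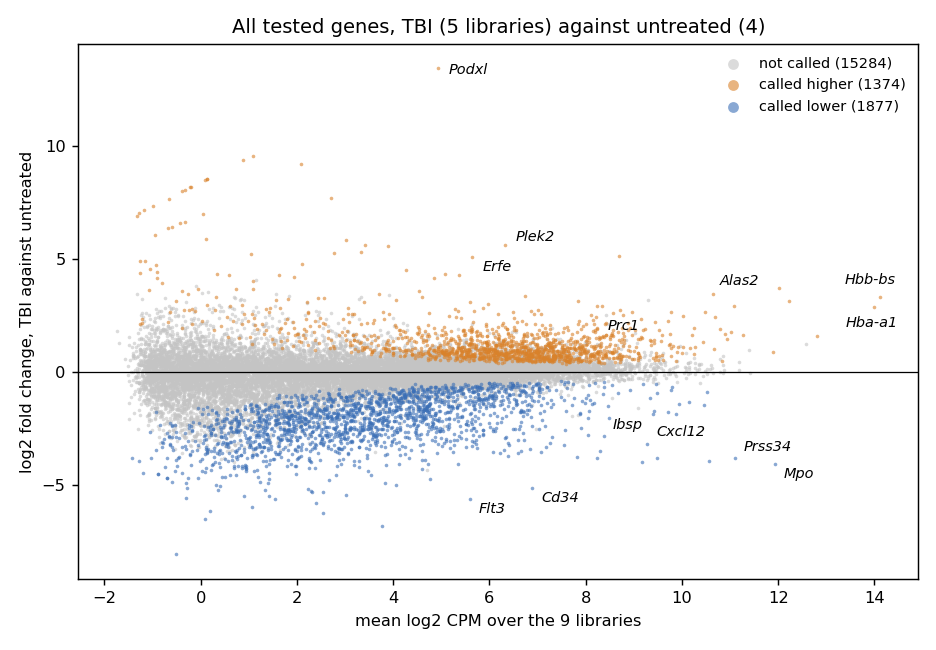
Each point is 1 of the 18535 tested genes, with its mean log2 CPM over the 9 libraries on the x axis and its log2 fold change, TBI against untreated, on the y axis (orange, 1374 called higher; blue, 1877 called lower; grey, not called). Podxl, with 0 counts in every untreated library, lies far above the rest, and among abundant genes Hba-a1 and Hbb-bs lie above the zero line and Mpo and Prss34 below it.

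The share of tested genes called depended on the setting, and counts of list members under another setting are read against its own shares. Leaving out untreated replicate 1, 2, 3 or 4 gave 4.86%, 3.45%, 4.85% and 4.63% of tested genes higher and 8.11%, 7.25%, 8.23% and 7.36% lower. Leaving out TBI replicate 1, 3, 4, 5 or 6 gave 6.8%, 5.4%, 5.93%, 5.88% and 9.45% higher and 8.43%, 8.61%, 8.48%, 8.01% and 12.4% lower. The fit over all 14 libraries gave 0.921% higher and 3.38% lower, no scaling factors 3.79% and 11.1%, a replicate block 4.19% and 6.31%, and DESeq2 10.6% and 14.2%.

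Library values of a gene are given below in CPM on the scaled library size and in replicate order, untreated 1 to 4 and then TBI 1, 3, 4, 5 and 6. Genes of each list were counted over those that passed the filter on low counts, so a gene that passed because it was high in 1 group alone is among them.

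Red cell genes rose together in the TBI libraries. Of 14 enzymes and carriers of haem synthesis, all of which were tested, 12 rose, 1 fell and 1 did not pass the test. The median log2 fold change of the list was 1.49, against -0.01 over all tested genes. Alas2, the rate-limiting first enzyme of haem synthesis in red cells, had 261, 132, 341 and 239 CPM in untreated libraries and 871, 1310, 733, 1410 and 9070 CPM in TBI libraries. All 5 TBI libraries lay above all 4 untreated ones, with replicate 6 more than 6 times the next. The log2 fold change was 3.46 ± 0.81 (SE, edgeR adjusted p = 0.0161), and 2.17 without replicate 6 (edgeR adjusted p = 0.000603). Fech, which inserts iron into the porphyrin ring, rose by 2.65 and the mitochondrial iron importer Slc25a37 by 2.67 on the log2 scale (1.74 and 1.79 without replicate 6). Without untreated replicate 2 the calls of Alas2 (3.26) and Fech (2.50) were lost. Alas1, the form of the first enzyme used outside the red cell lineage, moved the other way. It had 250, 164, 253 and 187 CPM untreated and 40.1, 49.3, 55.3, 42.2 and 14.9 CPM after TBI, with no overlap. Its log2 fold change was -2.40 ± 0.32 (edgeR adjusted p = 0.00142).

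The bases upstream of Alas2 are shown because it encodes the first enzyme of haem synthesis in red cells and rose with that list. The stretch lies at chrX:150547175-150547374 on the plus strand (RefSeq promoter table, GRCm38.p6) and ends at the base before the annotated start of the gene at 150547375.
Alas2: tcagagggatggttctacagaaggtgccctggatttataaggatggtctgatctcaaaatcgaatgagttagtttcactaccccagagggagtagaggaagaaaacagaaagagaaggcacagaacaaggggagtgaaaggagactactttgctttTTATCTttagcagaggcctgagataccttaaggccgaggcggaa
The capitals mark 1 match to AGATAA, here on the minus strand as TTATCT, a motif that GATA factors can bind. Of 32851 promoters in the table, 7.8% hold this motif on either strand in the 200 bases before their start. The gene and the motif were chosen after the values were seen, and the match is a description of the sequence alone.

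Globin genes had the largest levels. Of 10 listed genes 7 were in the table and 6 were tested. The 4 adult genes Hba-a1, Hba-a2, Hbb-bs and Hbb-bt rose, and the embryonic genes Hbb-bh1 and Hba-x did not pass the test. The median log2 fold change was 3.01, and 1.93 without replicate 6, when 4 genes were tested. Hbb-bs, an adult beta chain, had 3100, 2160, 4140 and 2370 CPM untreated and 9150, 13100, 7220, 14800 and 104000 CPM after TBI. Its groups did not overlap, and the log2 fold change was 3.33 ± 0.83 (edgeR adjusted p = 0.0214), or 1.92 without replicate 6. The log2 fold changes of Hba-a1, Hba-a2 and Hbb-bt were 2.88, 3.73 and 3.13, and 1.66, 2.07 and 1.93 without replicate 6. The call of Hbb-bs was lost without untreated replicate 1, 2 or 4, each left out in turn (3.21 or more). Of the 6 globin genes 1 was called without untreated replicate 1, without untreated replicate 2, without untreated replicate 4, or by DESeq2, which gave 3 of the 6 (Hba-a1, Hba-a2 and Hbb-bs) no adjusted p. Within each pair, Hba-a1 with Hba-a2 and Hbb-bs with Hbb-bt, the genes are near-identical copies, so the split of reads between them is uncertain.

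The red cell membrane showed the same direction in nearly every gene. Of 18 genes, all tested, 17 rose with a median of 1.89 on the log2 scale, and Cd59a did not pass the test (0.75). Slc4a1, the anion exchanger band 3, had 548, 218, 598 and 487 CPM untreated and 1510, 2590, 1340, 2360 and 9940 CPM after TBI. This gave a log2 fold change of 2.94 ± 0.64 (edgeR adjusted p = 0.0121), and 2.09 without replicate 6. Epb41, which joins spectrin to the membrane, rose by 2.63, and Tmod1, which caps actin filaments, by 2.56 (1.76 and 1.79 without replicate 6). The count for haem synthesis was 7 without untreated replicate 2. Without replicate 6 the membrane median was 1.46, with 17 genes still called higher, and without untreated replicate 2 the membrane count was 11 and the call of Epb41 (2.44) was lost.

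Among 21 red cell transcription factors and receptors, 13 rose and 1 fell, with a median of 1.39. The highest rise of the list was that of Plek2, a pleckstrin family protein of late red cell precursors, which had 3.43, 0.765, 4.09 and 3.12 CPM untreated and 76.8, 89.2, 82.1, 114 and 343 CPM after TBI. Its log2 fold change was 5.63 ± 0.67 (edgeR adjusted p = 0.000774) and 5.00 without replicate 6. Erfe encodes erythroferrone, the hormone by which red cell precursors lower hepcidin, and had 0.557, 3.76, 2.52 and 3.30 CPM untreated and 48, 60, 64.6, 72.7 and 191 CPM after TBI. For both genes the lowest TBI library lay more than 10 times above the highest untreated library. The transferrin receptor gene Tfrc rose by 2.68 ± 0.39 (edgeR adjusted p = 0.00201). The master factors Gata1 (1.09), Klf1 (1.20) and Tal1 (1.68) and the erythropoietin receptor gene Epor (1.39) rose by less. Ldb1, a bridge in the GATA1 complex, was the gene that fell (-0.61, edgeR adjusted p = 0.0389), a call lost on leaving out untreated replicate 2, 3 or 4 or TBI replicate 1, 3 or 5, each in turn (-0.64 to -0.47). In the fit over all 14 libraries 2 globin, 3 haem synthesis, 2 membrane and 3 regulator genes were called higher.

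**Figure D2:**
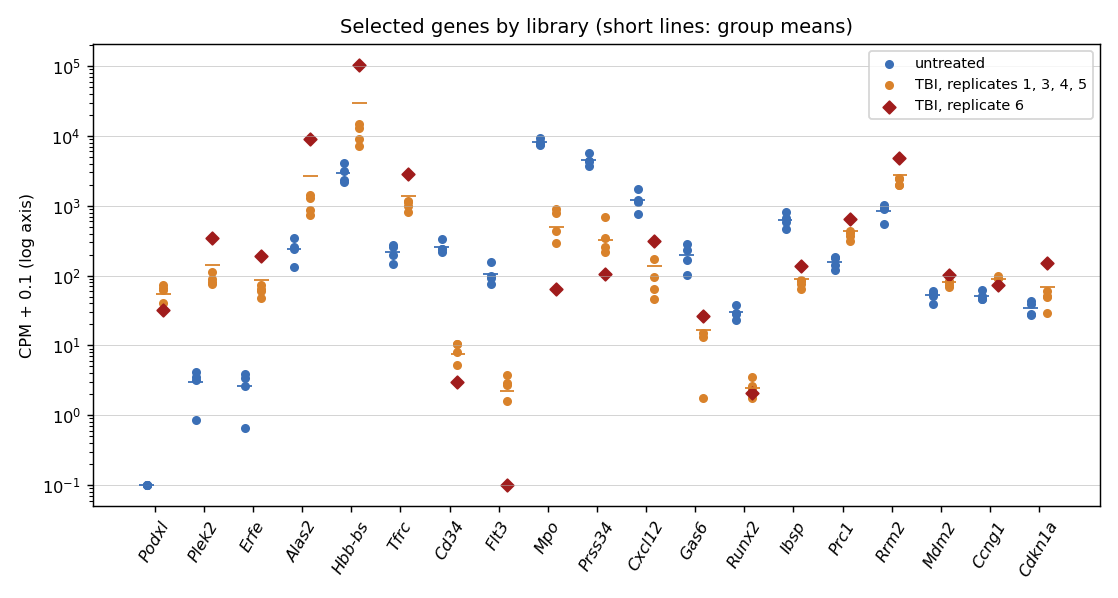
CPM plus 0.1 (log axis) of selected genes, with 1 point for each library (TBI replicate 6 as a diamond) and short lines at the group means. Podxl, Plek2, Erfe, Alas2, Hbb-bs and Tfrc are higher in every TBI library than in any untreated one and the 8 genes from Cd34 to Ibsp lower, Prc1, Rrm2, Mdm2 and Ccng1 separate by smaller steps, and Cdkn1a overlaps.

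The largest rise among called genes was that of Podxl, podocalyxin, a sialomucin of podocytes, endothelium and some blood precursors (chr6:31519488-31563981, GRCm38). It had 0 counts in each of the 4 untreated libraries and 1783, 1000, 1272, 1581 and 337 counts in the TBI libraries, or 74.2, 40.6, 65.7, 62.4 and 31.9 CPM. Against the level of 3 counts in the shallowest untreated library, it was at least 500-fold higher after TBI (edgeR adjusted p = 0.000124). It was 1 of 30 genes called higher whose untreated libraries were all at or under 3 counts. C2cd4a had 0.352, 0.223, 0.219 and 0.183 CPM untreated and 27.8, 9.25, 20, 9.08 and 5.39 CPM after TBI, a log2 fold change of 5.83 ± 0.61 (edgeR adjusted p = 0.000412). Cda, cytidine deaminase, rose by 5.58. For these 3 genes TBI replicate 6 was not the highest TBI library. The ranking that follows left out predicted genes, pseudogenes and immunoglobulin segments. Outside the red cell lists, the other genes with the highest rises among those with a mean of at least 3 log2 CPM began with Apol11b (5.11). After it came Nacad (4.50), Nrip3 (4.32), the stress pseudokinase gene Trib3 (4.14) and Arhgdig (3.56). Without replicate 6 the first 4 were at 4.08, 3.82, 3.25 and 3.31. Apol11b belongs to a family of close copies, so its reads may be shared.

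Genes of stem and early progenitor cells fell. Of 26 listed genes, all tested, 19 fell, 7 did not pass the test and 0 rose. The median log2 fold change was -2.50, and -2.52 without replicate 6. Cd34, a sialomucin of stem and progenitor cells, had 332, 244, 219 and 237 CPM untreated and 5.16, 10.5, 10.5, 8.05 and 2.93 CPM after TBI. The lowest untreated library was more than 20 times the highest TBI library, and the log2 fold change was -5.10 ± 0.36 (edgeR adjusted p = 0.000116). Flt3, the receptor for FLT3 ligand on multipotent and lymphoid progenitors, had 157, 91.3, 75.5 and 100 CPM untreated and 1.5, 3.65, 2.79, 2.60 and 0 CPM after TBI. The fitted log2 fold change was -5.59 ± 0.62 (edgeR adjusted p = 0.000556). Hlf, a factor of the most primitive stem cells, fell by 5.26, and Mn1 fell by 5.98. Meis1, a homeobox cofactor, fell by 3.27. Kit, the stem cell factor receptor gene, fell by 1.41 and remained at 17.1 to 76.9 CPM after TBI. Procr, Mecom, Ly6a, Erg, Myb, Sox4 and Egfl7 did not pass the test, of which Sox4 was called lower without replicate 6 (-1.16, edgeR adjusted p = 0.00107). The fit over all 14 libraries called 10 of the 26 lower. The summed level of the 26 genes was 1535 to 2141 CPM in untreated libraries and 190.1 to 670.8 CPM in TBI libraries.

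The genes with the largest falls by the same rule, which left out predicted genes such as Gm16897 (-4.97), included Flt3, Cd34 and Adgrl4 of this list. Adgrl4, also an adhesion receptor of endothelium, had a log2 fold change of -4.72. Cd27, a receptor of lymphocytes and multipotent progenitors, had 67.8, 51.8, 48.9 and 36.8 CPM untreated and 1.33, 3.98, 5.27, 2.09 and 0.189 CPM after TBI, with no overlap (log2 fold change -4.29, edgeR adjusted p = 0.00184). Mpeg1, perforin-2 of phagocytes, fell by 5.44, Mdga1 fell by 4.56, the potassium channel gene Kcnk12 fell by 4.35 and Fgf3 fell by 4.18. Ccr1 and Bcl2, also among them, are described with their lists.

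Neutrophil precursor genes had the lowest median of the blood lists. Of 16 genes of primary granules, their regulators and other genes listed for these precursors, all tested, 13 fell and 0 rose, with a median of -3.16. Hp and Igfbp4 of this list also stand in the mesenchymal stroma list below. Mpo, myeloperoxidase, had 9250, 8160, 7750 and 7470 CPM untreated and 296, 898, 785, 433 and 64.7 CPM after TBI. The log2 fold change was -4.04 ± 0.60 (edgeR adjusted p = 0.00219). Elane, neutrophil elastase, had 1320, 1300, 1160 and 1020 CPM untreated and 44.4, 151, 114, 56.4 and 17.9 CPM after TBI, and fell by 3.97 ± 0.52 (edgeR adjusted p = 0.00121). Cathepsin G (Ctsg) fell by 3.80, and the factor Cebpa fell by 2.80. Genes of later granules and mature neutrophils, of which 17 of 19 were tested, had a median of -0.24, with 3 lower (Cxcr2, Padi4 and Lyz2). That is 17.6% lower, against 10.1% of all tested genes. No gene of this list was called higher, except 2 without untreated replicate 4. Their summed level was low in both groups, 137.5 to 193.8 CPM untreated and 63.33 to 108.8 CPM after TBI.

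The bases upstream of Elane are shown as an example from the granule genes that fell. The stretch lies at chr10:79886062-79886246 on the plus strand (RefSeq promoter table, GRCm38.p6), up to the base before the annotated start.
Elane: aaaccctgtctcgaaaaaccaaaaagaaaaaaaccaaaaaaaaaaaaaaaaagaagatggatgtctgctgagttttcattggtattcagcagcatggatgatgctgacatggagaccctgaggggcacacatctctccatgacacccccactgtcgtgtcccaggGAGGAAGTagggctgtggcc
The capitals mark 1 match to GAGGAAGT, a motif that the myeloid factor PU.1 can bind. It is present on either strand in 1.9% of 32851 promoters over the same 185 bases. Spi1, the gene of PU.1, had 100, 122, 105 and 115 CPM untreated and 15.7, 21.1, 18.3, 21.7 and 4.63 CPM after TBI, with no overlap, and a log2 fold change of -2.76 ± 0.35 (edgeR adjusted p = 0.00108). Gene, motif and factor were chosen after the values were seen.

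Other myeloid genes moved the same way. Of 20 tested genes of basophils, mast cells and eosinophils, out of 22 listed, 13 fell and 0 rose, with a median of -1.84. Prss34, a basophil protease, had 5760, 4320, 3700 and 4410 CPM untreated and 261, 699, 220, 341 and 104 CPM after TBI. Its log2 fold change was -3.81 ± 0.47 (edgeR adjusted p = 0.000868), the same size as that of Mcpt8 (-3.81), another basophil protease, and close to that of the mast cell carboxypeptidase gene Cpa3 (-3.32). Eosinophil genes Epx, Ear1, Ear2 and Ear6 did not pass the test. Of 22 tested genes of monocytes, macrophages and dendritic cells, out of 27 listed, 10 fell and 0 rose, with a median of -2.14. Siglech, a receptor of plasmacytoid dendritic cells, had 9.91, 9.66, 17.9 and 12.9 CPM untreated and 0, 0.730, 0, 0 and 0 CPM after TBI. Ms4a6c and Ly6c2, genes of classical monocytes, had log2 fold changes of -3.86 and -3.23. The macrophage genes Mrc1, Cd163, C1qb and C1qc did not pass the test.

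Some megakaryocyte genes fell, and no B lineage gene was called by edgeR with all 9 libraries and no replicate block. Of 22 tested megakaryocyte and platelet genes, out of 24 listed, 7 fell and 0 rose, with a median of -1.66, and 12 fell without replicate 6, with a median of -2.07. The integrin gene Itga2b had 186, 115, 142 and 180 CPM untreated and 18.2, 18.9, 19.6, 15.3 and 34.4 CPM after TBI, with replicate 6 the highest TBI library. This gave a log2 fold change of -2.88 ± 0.26 (edgeR adjusted p = 0.000263). The platelet genes Gp9 (0.05) and Tubb1 (0.05) did not pass the test. The summed level of this list in TBI replicate 6 was 1508 CPM on the scaled library size. It was 442.5 to 542.6 CPM in the other TBI libraries and 717.3 to 1003 CPM in untreated ones. The scaling factor of TBI replicate 6 was 0.645, against 0.991 to 1.14 in the other libraries. A low factor raises its CPM, so its rank in this list depends on the scaling. B lineage genes, 24 of 24 tested, gave 0 calls in either direction in that fit (3 higher and 2 lower at an unadjusted p under 0.05), with a median of 0.66. With a replicate block 3 were called higher. By DESeq2, and without untreated replicate 1 or untreated replicate 4, 1 was called lower. Igll1, the surrogate light chain of early B cells, had 140, 159, 451 and 194 CPM untreated and 625, 731, 418, 787 and 107 CPM after TBI. TBI replicate 6 was the lowest of all 9 libraries for this gene, and the groups overlapped (log2 fold change 1.18, edgeR adjusted p = 0.159). Without replicate 6 the value was 1.45 (edgeR adjusted p = 0.0137), and 6 B lineage genes were then called higher, as were 2 without untreated replicate 3. Ighm, the heavy chain of IgM, had 392, 485, 1170 and 538 CPM untreated and 619, 776, 484, 857 and 108 CPM after TBI, with overlap. Of 13 tested T and natural killer cell genes, out of 23 listed, 2 fell (Gzmb and Lat) and 0 rose, with a median of -1.12. That is 15.4% lower, against 10.1% of all tested genes, and 4 fell without untreated replicate 1.

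**Figure D3:**
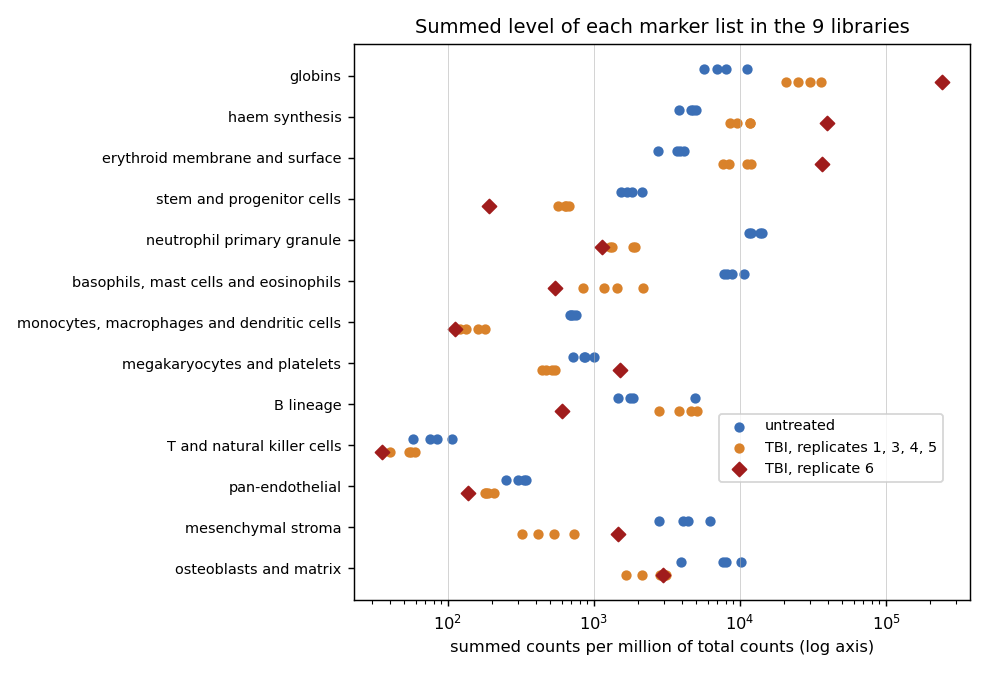
Summed CPM (log axis) for 13 marker lists, with 1 point for each library. Values are on the scaled library size, although the axis title names total counts. The 3 red cell lists are higher in all TBI libraries than in all untreated ones. The stem cell, neutrophil precursor, basophil, monocyte, pan-endothelial, mesenchymal and osteoblast lists are lower. TBI replicate 6 (diamond) is the highest library in the red cell and megakaryocyte lists. It is the lowest in the stem cell, neutrophil precursor, basophil, monocyte, B lineage, T and natural killer cell, and pan-endothelial lists.

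Mesenchymal stroma genes had the largest share of calls among the marker lists of non-blood cells. Of 30 tested genes, out of 31 listed, 26 fell and 0 rose, with a median of -2.52 and -3.01 without replicate 6. Cxcl12, the chemokine that holds stem cells in the niche, had 1150, 1750, 760 and 1220 CPM untreated and 171, 63.3, 96.9, 46.2 and 308 CPM after TBI. Its groups did not overlap, and TBI replicate 6 was the highest TBI library. The log2 fold change was -3.16 ± 0.52 (edgeR adjusted p = 0.00348). Lepr, the leptin receptor gene that marks perivascular stromal cells, had 81.4, 78.5, 71.8 and 115 CPM untreated and 10.2, 13.3, 12.7, 11.8 and 55.9 CPM after TBI. Its log2 fold change was -2.07, and -2.84 without replicate 6. Stem cell factor (Kitl) fell by 2.75, and adiponectin (Adipoq), made by the same stromal cells, fell by 2.52. Gas6, a ligand of receptors that clear dying cells, had 229, 286, 101 and 167 CPM untreated and 27.1, 13.3, 15, 1.66 and 26 CPM after TBI, and fell by 3.57 ± 0.62 (edgeR adjusted p = 0.00447). Angptl1 fell by 4.14 and Bmp4 fell by 3.79. The fit over all 14 libraries called 23 of 31 tested genes lower. The summed level of the list was 2786 to 6178 CPM in untreated libraries and 321.5 to 1466 CPM in TBI libraries. That of the pan-endothelial list was 249.8 to 344.8 and 138.0 to 208.1 CPM.

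Bone-forming genes and niche factors fell with the stroma. Of 26 tested osteoblast and matrix genes, out of 28 listed, 16 fell and 0 rose, with a median of -1.58. Runx2, the factor that commits cells to bone, had 22.8, 38.3, 28.5 and 28.8 CPM untreated and 2.25, 3.45, 2.48, 1.66 and 1.99 CPM after TBI, and was among the 20 genes with the smallest p-values (log2 fold change -3.64 ± 0.28, edgeR adjusted p = 0.000124). Ibsp, bone sialoprotein, had 675, 814, 462 and 579 CPM untreated and 86.9, 64.7, 82.8, 74.6 and 137 CPM after TBI. Osteocalcin (Bglap, -1.43) and the collagen chains Col1a1 (-1.39) and Col6a2 (-2.65) also fell. Of 25 tested niche factors, out of 35 listed, 14 fell and 0 rose, with a median of -2.37. Several of these, among them Cxcl12, Kitl, Bmp4 and Il7, also stand in the mesenchymal list, and Angpt1 stands in the stem cell list. Angpt1, the ligand of the endothelial receptor TIE2, had 86.8, 46.8, 43.3 and 67.3 CPM untreated and 4.79, 11.5, 3.82, 2.88 and 2.08 CPM after TBI, a log2 fold change of -3.59 ± 0.47 (edgeR adjusted p = 0.00129). Pericyte and smooth muscle genes, 10 of 15 tested, included 3 that fell (Rgs5, Notch3 and Mylk), a 30% share against 10.1% of all tested genes. The call of Notch3 was lost without untreated replicate 2 or 4 or TBI replicate 4 or 5 (-2.10 to -2.01). Without TBI replicate 6 the list had 5 genes that fell.

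Few vascular genes were called, though most values were negative. Of 16 tested pan-endothelial genes 3 fell and 0 rose, an 18.8% share lower against 10.1% of all tested genes, and 14 had a log2 fold change below 0, with a median of -1.10. Tie1, an orphan receptor of endothelium, had 8.85, 7.27, 9.43 and 8.61 CPM untreated and 0.708, 2.03, 0.362, 0 and 0 CPM after TBI (log2 fold change -3.71, edgeR adjusted p = 0.0234), a call that was lost without untreated replicate 2, untreated replicate 4 or TBI replicate 4 (-3.78 to -3.57). Esam fell by 3.22. Esm1, which is also in the mesenchymal list, fell by 2.95. Pecam1, the adhesion molecule CD31, had 41.4, 28.5, 71.5 and 51 CPM untreated and 16.9, 33.3, 21.1, 28.4 and 4.16 CPM after TBI, with overlap. Its log2 fold change was -1.21 ± 0.47 (edgeR adjusted p = 0.108), and -0.94 without replicate 6 (edgeR adjusted p = 0.0428). Egfl7 (-0.01), Eng (-0.15) and Kdr (-0.08) did not pass the test. Of 14 tested sinusoid genes, out of 20 listed, 1 rose and 3 fell (1 fell without untreated replicate 2), with a median of -1.23. The shares were 7.14% higher and 21.4% lower, against 7.41% and 10.1% of all tested genes. The riser was Ackr1, the Duffy chemokine receptor, which red cells also carry, with 32.4, 22.2, 33.1 and 19.8 CPM untreated and 66, 91.9, 72.7, 109 and 374 CPM after TBI (log2 fold change 2.41, and 1.67 without replicate 6). Of 16 tested artery genes, out of 22 listed, with a median of -0.97, Podxl rose and Cxcl12, Vegfc and Fbln5 fell. These were 6.25% higher and 18.8% lower with all 9 libraries, and 6 fell without TBI replicate 6. Ptprc, the gene of CD45 used to exclude blood cells from the sort, had 50.3 to 95.9 CPM untreated and 6.72 to 56.2 CPM after TBI (log2 fold change -1.13, edgeR adjusted p = 0.111). It was called lower without replicate 6 (-0.86, edgeR adjusted p = 0.0171) and with a replicate block (-1.19, edgeR adjusted p = 0.0132).

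Most mitotic genes rose. Of 48 genes of the spindle, kinetochore and mitotic kinases, all tested, 40 rose and 0 fell, with a median of 0.98, and 0.75 without replicate 6. Cdc25b, a phosphatase that starts mitosis, had 66.6, 59.9, 141 and 73.9 CPM untreated and 270, 386, 266, 391 and 1010 CPM after TBI, a log2 fold change of 2.44 ± 0.45 (edgeR adjusted p = 0.00594). Prc1, which bundles the central spindle, had 143, 119, 179 and 183 CPM untreated and 309, 435, 366, 406 and 641 CPM after TBI. Cyclins A2 (Ccna2, 1.38) and B1 (Ccnb1, 1.40) and Mki67 (1.27) rose. The number called higher was 18 without untreated replicate 2, 20 without untreated replicate 4 and 7 in the fit over all 14 libraries. The red cell lists rose in the same libraries, and their part in these rises was not tested.

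DNA replication genes rose as well, by less. Of 50 genes, all tested, 29 rose and 0 fell (1 fell without replicate 6), with a median of 0.57. Rrm2, a subunit of ribonucleotide reductase, had 936, 556, 1030 and 885 CPM untreated and 1980, 2400, 1990, 2520 and 4790 CPM after TBI, and rose by 1.68 ± 0.30 (edgeR adjusted p = 0.00523). Ccne1, cyclin E1, rose by 1.30, and the helicase subunits Mcm2 to Mcm7 by 0.49 to 0.94. Without scaling factors 10 genes were called higher, without untreated replicate 2 the count was 15, without untreated replicate 3 it was 19, and in the fit over all 14 libraries it was 4. Among 19 tested cell cycle inhibitors, G1 cyclins and their partners, out of 20 listed, 9 rose and 3 fell. The risers included E2f2 (2.15), the inhibitor genes Cdkn2c (1.10) and Cdkn2d (1.85), and Ccnd3 (0.80), the cyclin D of red cell precursors. Without replicate 6 E2f2 was at 1.44 and Cdkn2d at 1.04. The count of risers was 2 without untreated replicate 2 or 4 and 4 without untreated replicate 1. Cdkn1c, an inhibitor of stem and stromal cells, fell by 2.75, Ccnd1 fell by 1.29 and Cdk6 fell by 1.15. The call of Cdk6 was lost on leaving out any 1 untreated library or TBI replicate 3, 4 or 5 (-1.25 to -1.02), that of Cdkn2d on leaving out any 1 untreated library or TBI replicate 3 or 5 (1.73 to 2.06), and that of E2f2 without untreated replicate 2 (2.03).

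At 8 days the share of p53 response genes called higher was above that of all tested genes. The share called lower was near that of all tested genes. Of 38 tested p53 target genes, out of 40 listed, 6 rose and 3 fell (15.8% and 7.89%, against 7.41% and 10.1% of all tested genes), with a median of 0.29. Without scaling factors 2 rose, with a replicate block 3, by DESeq2 11, and in the fit over all 14 libraries 0 were called. Cdkn1a, the p21 inhibitor and the most used p53 target, had 39.3, 28.4, 43.3 and 27.6 CPM untreated and 50.6, 49, 28.9, 59.6 and 152 CPM after TBI. The groups overlapped, and the log2 fold change was 0.97 ± 0.42 (edgeR adjusted p = 0.145). Mdm2, the ligase that degrades p53, had 51.5, 39.7, 57.1 and 60.5 CPM untreated and 68.5, 83.2, 74.4, 82.1 and 102 CPM after TBI. The fitted log2 fold change was 0.65 ± 0.17 (edgeR adjusted p = 0.0272), a call lost without scaling factors (0.38) and without untreated replicate 1, untreated replicate 2 or TBI replicate 3 (0.54 to 0.65). Ccng1, cyclin G1, had 45.5, 46.8, 50.9 and 62.2 CPM untreated and 92.1, 91.9, 98.6, 93.5 and 73.9 CPM after TBI, a log2 fold change of 0.81 ± 0.15 (edgeR adjusted p = 0.00604), also lost without scaling factors (0.59). Gdf15, a stress cytokine that red cell precursors also make, rose by 4.21 (3.25 without replicate 6). Tigar (-2.87), Perp (-2.56) and the repair gene Xpc (-1.65) fell. The call of Perp was lost without untreated replicate 1, 2 or 4 or TBI replicate 1, 3 or 4 (-2.71 to -2.35), and that of Tigar without untreated replicate 3 (-2.58). Trp53 itself had 235 to 293 CPM untreated and 173 to 306 CPM after TBI.

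Of 40 genes of double-strand break repair, all tested, 10 rose and 0 fell (25% higher, against 7.41% of all tested genes), with a median of 0.44. Brca1, of homologous recombination, had 49.8, 32.9, 37.6 and 48.1 CPM untreated and 57.8, 110, 85.7, 83.6 and 158 CPM after TBI (log2 fold change 1.23, edgeR adjusted p = 0.0138). The helicase gene Blm rose by 1.22. The kinase genes Atm, Atr and Chek2 did not pass the test. The count was 3 without scaling factors, 6 without untreated replicate 2, 5 with a replicate block and 0 in the fit over all 14 libraries. In the BCL2 family, 16 of 22 listed genes were tested, 2 rose (Bcl2l13 and Mcl1) and 3 fell. The shares were 12.5% and 18.8%, against 7.41% and 10.1% of all tested genes. Without untreated replicate 1, 2 or 4 or TBI replicate 3 there was 1 riser, the call of Mcl1 being lost (0.56 to 0.71). Bcl2, which keeps progenitors and lymphocytes alive, had 108, 73.9, 65.9 and 93 CPM untreated and 5.87, 6.82, 5.94, 5.68 and 0.851 CPM after TBI. The log2 fold change was -4.06 ± 0.44 (edgeR adjusted p = 0.000516). Bcl2l1, the BCL-XL gene on which red cell precursors depend, had 31.8 to 85.1 CPM untreated and 95 to 696 CPM after TBI (1.96, edgeR adjusted p = 0.0536), and 1.01 without replicate 6 (edgeR adjusted p = 0.0209). The killers Bax (-0.02) and Bak1 (-0.03) and the p53-induced Bbc3 (0.84) did not pass the test.

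**Figure D4:**
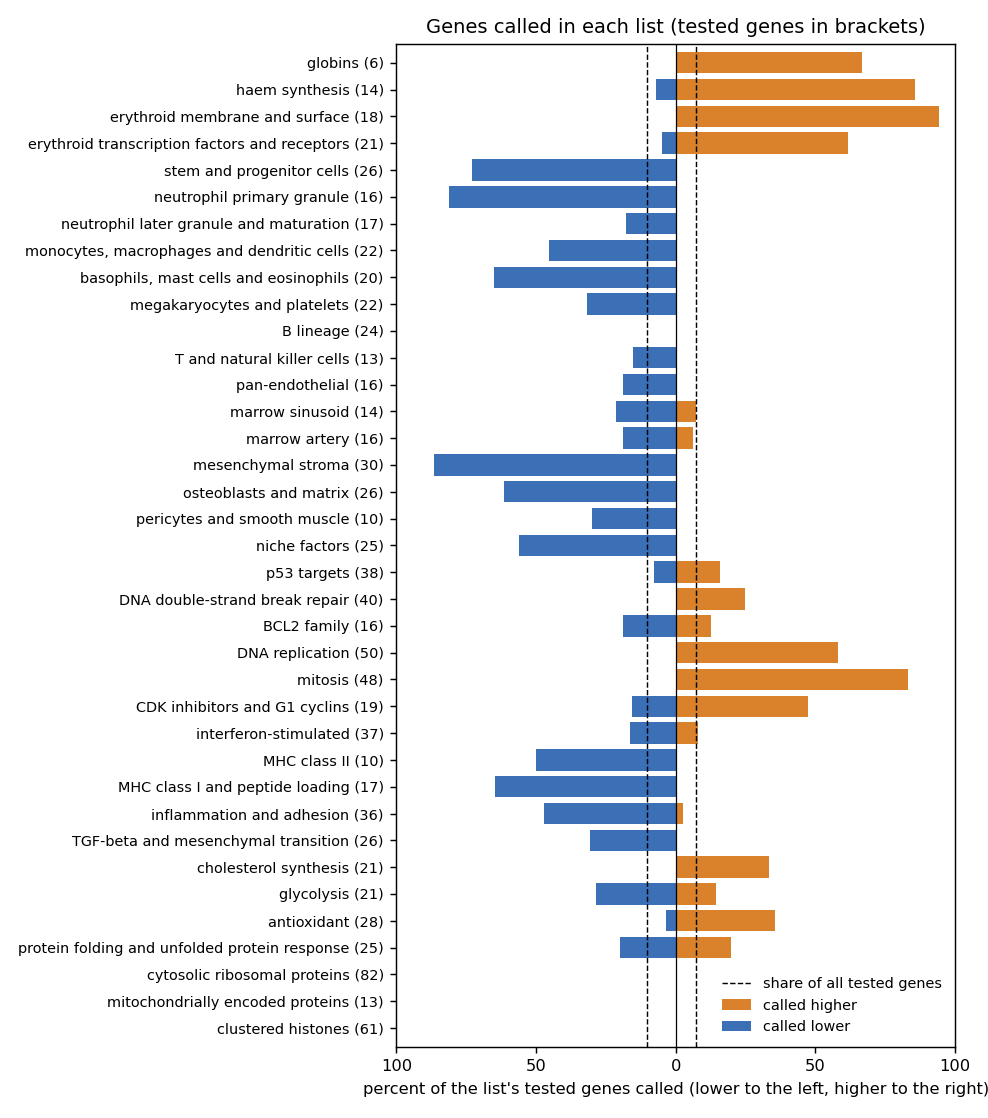
For each of 37 gene lists, the percent of its tested genes called higher (orange, to the right) and lower (blue, to the left) after TBI, with dashed lines at the shares over all tested genes (7.41% higher and 10.1% lower). The red cell, mitosis and DNA replication lists extend to the right and the stem cell, myeloid, mesenchymal, bone and MHC lists to the left, and ribosomal, mitochondrially encoded, histone and B lineage genes have no bar.

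Genes of antigen presentation fell. Of 17 tested genes of MHC class I and peptide loading, 11 fell and 0 rose, with a median of -1.14. B2m, the light chain shared by class I molecules, had 1150, 1170, 1260 and 1030 CPM untreated and 556, 720, 579, 872 and 574 CPM after TBI (log2 fold change -0.80, edgeR adjusted p = 0.00908). The immunoproteasome subunit Psmb8 fell by 1.84, and H2-Q7 fell by 2.72 and H2-Q6 fell by 2.31, which are close copies of each other. Of 10 tested MHC class II genes, out of 11 listed, 5 fell and 0 rose. H2-DMb1, a chain of the peptide exchanger of class II molecules, had 28.1, 33, 26.2 and 28 CPM untreated and 1.58, 2.19, 2.94, 2.68 and 2.08 CPM after TBI. Its log2 fold change was -3.65 ± 0.25 (edgeR adjusted p = 0.000103). The number of class II calls was 2 without untreated replicate 3 and 3 without untreated replicate 4, TBI replicate 1 or TBI replicate 4. The class II master factor Ciita (-0.85) did not pass the test.

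Inflammatory genes fell, and the share of interferon-stimulated genes called higher was near that of all tested genes. Of 36 tested genes of inflammation and adhesion, out of 41 listed, 17 fell and 1 (Itga4) rose, with a median of -1.55. Ccl3 and Ccl4, chemokines of myeloid cells, had log2 fold changes of -3.54 and -3.89, and the chemokine receptor gene Ccr1 fell by 4.09. The immediate early gene Fos had 666, 105, 327 and 400 CPM untreated and 61, 63.1, 17, 38.6 and 17.9 CPM after TBI, and untreated replicate 2 lay far below the other untreated libraries. Of 37 tested interferon-stimulated genes, out of 41 listed, 3 rose and 6 fell (8.11% and 16.2%, against 7.41% and 10.1% of all tested genes). Rsad2 had 57, 42.6, 117 and 88.2 CPM untreated and 122, 254, 177, 279 and 966 CPM after TBI (log2 fold change 2.24, edgeR adjusted p = 0.0276), and Isg15 rose by 2.23. Without replicate 6 Rsad2 was at 1.46 and Isg15 at 1.55. Both calls were lost without untreated replicate 1, 2 or 4 (2.04 to 2.31 for Rsad2, 2.07 to 2.29 for Isg15). Ifitm1 (-2.36) and Ifitm3 (-1.39), membrane proteins that block virus entry, fell. In the TGF-beta and mesenchymal transition list 26 of 33 genes were tested and 8 fell, among them the inhibitor gene Smad6 (-3.18). That is 30.8% lower, against 10.1% of all tested genes. Without 6 single libraries (untreated replicates 1, 2 and 4 and TBI replicates 3, 4 and 5), each left out in turn, 3 fell, and 5 without untreated replicate 3 or TBI replicate 1.

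Metabolic genes moved in both directions. Of 28 antioxidant genes, all tested, 10 rose and 1 (Prdx5) fell (35.7% and 3.57%, against 7.41% and 10.1% of all tested genes). Without TBI replicate 6, when 12.4% of all tested genes were called lower, 3 antioxidant genes fell. Prdx2, the peroxiredoxin of red cells, had 1050, 1150, 1230 and 1120 CPM untreated and 2050, 2360, 2100, 2580 and 8630 CPM after TBI, and rose by 1.64 ± 0.44 (edgeR adjusted p = 0.0273), or 1.01 without replicate 6. The call was lost without any 1 of the 4 untreated libraries (1.61 to 1.68). Of the antioxidant genes 3 were called higher without untreated replicate 2, 4 without untreated replicate 4, and 5 without untreated replicate 1 or 3. In glycolysis, 21 of 22 listed genes were tested, 3 rose (Hk1, Pfkm and Pklr) and 6 fell. The shares were 14.3% and 28.6%, against 7.41% and 10.1% of all tested genes. Pklr, the red cell and liver pyruvate kinase gene, rose by 0.97, while Pkm, the form of other tissues, had 446, 397, 466 and 445 CPM untreated and 255, 178, 176, 182 and 59 CPM after TBI and fell by 1.37 ± 0.32 (edgeR adjusted p = 0.0156). Of the hexokinases, Hk1 rose by 0.82 and Hk2 fell by 2.01, a call lost without untreated replicate 2 (-2.02). The call of Pklr was lost without untreated replicate 1, 2 or 3 or TBI replicate 1, 3 or 4 (0.81 to 0.99). The 3 rises were 1 without untreated replicate 1, 2 or 3, without TBI replicate 4, or without scaling factors. Of 21 tested cholesterol synthesis genes, out of 22 listed, 7 rose and 0 fell (33.3% higher, against 7.41% of all tested genes). The number that rose was 1 without scaling factors, 3 without untreated replicate 2 and 4 without untreated replicate 1 or TBI replicate 4. Among 25 genes of protein folding and the unfolded protein response, 5 rose and 5 fell (20% each, against 7.41% and 10.1% of all tested genes). The risers included targets of the amino acid stress pathway, Trib3 (4.14), Chac1 (3.29) and Asns (1.47), with their factor Atf4 (1.08), and those that fell included Pdia6 (-0.91), Sdf2l1 (-0.87) and Xbp1 (-0.80). The number of risers was 2 without untreated replicate 2 or 4 and 3 without TBI replicate 5, and 3 fell without TBI replicate 5. The call of Chac1 was lost without untreated replicate 2 or 4 or TBI replicate 3 or 5 (3.05 to 3.72).

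The ribosomal, mitochondrially encoded and clustered histone lists gave no call by edgeR with TMM factors and all 9 libraries. Of 82 tested genes of cytosolic ribosomal proteins 0 were called (1 at an unadjusted p under 0.05), with a median of -0.03 that became -0.29 without scaling factors, when 2 were called lower. Of 13 mitochondrially encoded protein genes 0 were called (0 at an unadjusted p under 0.05), with a median of 0.08 that turned to -0.21 without scaling factors and to -0.17 without TBI replicate 6, with 1 called lower in each. Among 61 tested clustered histone genes 0 were called (5 higher and 2 lower at an unadjusted p under 0.05), with a median of 0.27 that turned to -0.11 without scaling factors, when 2 were called lower, and to -0.19 without TBI replicate 6, when 1 was called higher and 1 lower. DESeq2 called 0 ribosomal, 0 mitochondrial and 5 histone genes, 4 of them higher.

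TBI replicate 6 held extreme values in many genes. It was the highest TBI library in 1045 of the 1374 genes called higher (76.1%) and the lowest in 1004 of the 1877 called lower (53.5%). In 5181 tested genes (28%) it differed more than 2-fold from the mean of the other 4 TBI libraries, whereas each of the other 4 differed by as much from the remaining 3 in 336 to 1340 genes. Without it the median of the globin list fell from 3.01 to 1.93 and that of haem synthesis from 1.49 to 1.04, while that of mesenchymal stroma moved from -2.52 to -3.01.

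**Figure D5:**
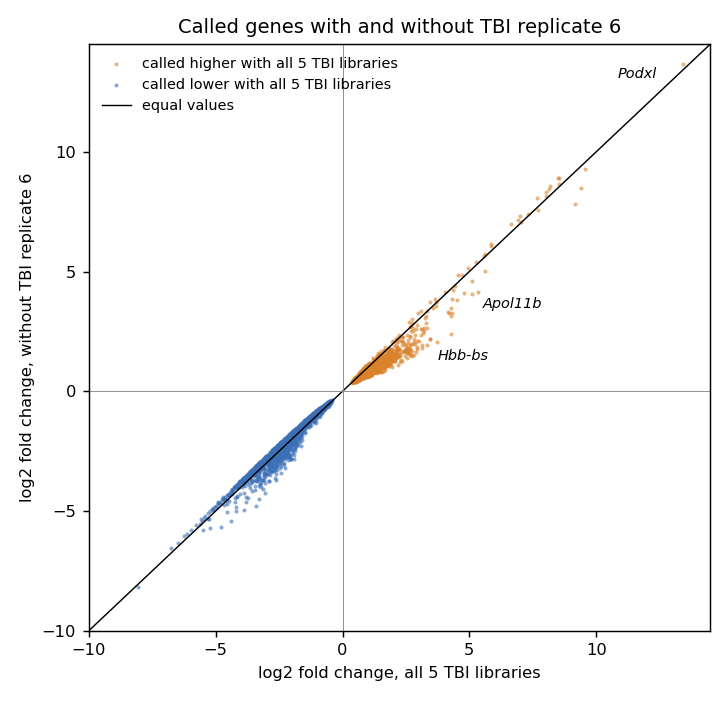
Log2 fold change, TBI against untreated, of the 3236 called genes that both fits tested, with all 5 TBI libraries (x axis) and without TBI replicate 6 (y axis), and a line at equal values. All have the same sign in both, and rises such as those of Hbb-bs (3.33 and 1.92) and Apol11b (5.11 and 4.08) lie below the line.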

How the data were processed

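RNA of the sorted cells was amplified with a SMART-Seq v4 kit and made into libraries with Nextera XT, per the labels' protocols. The authors deposited whole-number counts per gene for 55335 genes. Their processing notes name FastQC 0.11.9, STAR 2.7.7a and edgeR 3.36.0 and the human build hg38, although the identifiers are of mouse genes: 54587 match GENCODE M21 (GRCm38), all with the same position. How genes were counted, and whether strand was used, is not given in the sources used here. Without molecular identifiers, amplified copies count as separate reads, so the level of 3 counts, used as the lowest signal, covers counting error only.

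Counts of the 9 libraries were fitted with edgeR 4.0.16 (R 4.3.3), using filterByExpr (minimum count 10, minimum total 15), TMM factors, a robust quasi-likelihood fit with 1 coefficient per group, and Benjamini-Hochberg adjustment (threshold 0.05). SE is that of the log2 fold change, derived from the F statistic. CPM of single genes and summed CPM of lists both use scaled library sizes.

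The comparison, its 34 hand-written gene lists and the 3 lists taken by name pattern (ribosomal, mitochondrially encoded, histone) were chosen with earlier results of these data known. Named genes are the 12 largest rises and falls (called with and without TBI replicate 6, mean log2 CPM at least 3, no overlap), up to 3 called genes per list and direction (of a list with none, the 2 with the highest mean CPM), and Cdh5, Pecam1, Ptprc, Cdkn1a, Mdm2, Ccng1 and Trp53. Predicted genes, pseudogenes and immunoglobulin segments were left out of the 12 largest rises and falls. Further list members are named as examples after their values were seen. Of 148 named genes 119 matched the RefSeq promoter table.

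Alternatives were other scaling (RLE, none), no filter, DESeq2 1.42.0, a fit over all 14 libraries, a replicate block and each library left out. A sex term and a fit of the libraries with Xist only were added after seeing the data. On simulated counts of 18535 genes with 200 changed, the TBI fit called 105 with the right sign and 6 falsely, among them 15.9% of 2-fold, 55.6% of 4-fold and 95.2% of 8-fold changes. With none changed it called 0, and 832 had an unadjusted p under 0.05. The simulated counts were drawn independently for each gene, with far fewer genes changed than were called here and no outlying library. These rates need not hold for the real libraries. TBI replicate 2 was not analysed here. Some results are not reported here.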

Additional observations from a re-analysis of the deposited data

Results flagged for a closer look

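In each of the 148 named genes, the library at either end of its group was compared with the rest of that group, by its gap to the nearest other library over the group's range (Dixon's 95% critical value). For independent, normally distributed values chance gives about 1 such library in 20 groups. CPM of genes that vary together and were named partly by their calls need not follow that rate. Here 51 of 296 groups (17.2%) had one, 42 of them TBI replicate 6. Values are in CPM.

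In the red cell genes TBI replicate 6 was far above the other TBI libraries, at 104000 for Hbb-bs (others 7220 to 14800), 26500 for Hba-a2, 25700 for Hbb-bt, 9070 for Alas2, 6580 for Fech and 2250 for Slc25a37. It had 9940 for Slc4a1, 1720 for Epb41, 567 for Tmod1, 2840 for Tfrc, 343 for Plek2, 191 for Erfe and 374 for Ackr1. It was also high among the genes with large rises, at 2230 for Apol11b, 84.7 for Nacad, 182 for Nrip3 and 139 for Trib3.

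In genes of division and its control TBI replicate 6 had 4790 for Rrm2, 179 for Orc1, 595 for Ccne1, 1010 for Cdc25b, 1750 for Ube2c, 1360 for E2f2, 799 for Cdkn2d, 501 for Hist1h2ao and 569 for Hist1h2ap. Among damage and survival genes it was high at 152 for Cdkn1a, 19.8 for Gdf15, 183 for Ppm1d and 260 for Bcl2l13. It was low at 73.9 for Ccng1, 4.26 for Xpc and 0.851 for Bcl2. It was high at 966 for Rsad2, 196 for Isg15, 84.8 for Ifitm3, 34.4 for Itga2b, 137 for Fdft1, 8630 for Prdx2, 121 for Srxn1, 859 for Prdx3 and 4510 for mt-Co1.

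The other 9 were spread over 6 libraries. Untreated replicate 2 was low for Tmod1 (15.1, others 42.2 to 43.3) and Ccne1 (159) and high for Vegfc (23.2, others 7.53 to 8.17). Untreated replicate 1 was low for Ldhb (14) and untreated replicate 4 for Hist1h2ao (115). TBI replicate 3 was high for Siglech (0.73, others 0) and Angpt1 (11.5), TBI replicate 4 was low for Hlf (0), and TBI replicate 5 was high for H2-Q6 (29).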

How the results depend on the processing

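Of 18535 tested genes, 3251 were called. On leaving out 1 library at a time the number was between 2025 (without untreated replicate 2) and 4005 (without TBI replicate 6), with 653 to 1732 higher (879 without untreated replicate 4) and 1372 to 2273 lower. The fit over all 14 libraries called 926 (198 higher, 728 lower), 894 of them among the 3251. Without scaling factors 703 were higher and 2057 lower. DESeq2 called 1970 higher and 2632 lower, RLE factors gave 1261 and 1911, no filter on low counts 1177 and 1700, a sex term 1283 and 1826, and the 5 libraries with Xist 1230 and 1562. The labels do not say that the replicate numbers pair the libraries, and the values do not settle it. Deviations from the group means of untreated and TBI libraries of the same number had correlations of 0.009, 0.142 and 0.238. Those of different numbers had -0.140 to 0.226. Libraries of the same number also had the same Xist or Y pattern. A fit with the replicate number as a block called 1946 genes (776 higher, 1170 lower).

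Of 135 called genes named by rule, 69 lost their call in the fit over all 14 libraries, 28 with the replicate block and 33 without untreated replicate 2, and 0 of the 131 with an adjusted p in DESeq2, which gave 4 none. Reversed signs were found for uncalled genes near 0. For Ighm (-0.18), leaving out a library gave -0.3565 to 0.2711, with 0.0946 without TBI replicate 6. For Rpl4 (0.05) it gave -0.0236 to 0.1366, the 14-library fit gave -0.0655, and no scaling factors -0.1937. For mt-Co1 (0.33) leaving out a library gave -0.174 to 0.516, no scaling factors -0.05, the replicate block -0.2509 and the libraries with Xist -0.1616. For mt-Cytb (-0.07) it gave -0.2251 to 0.085, with 0.0447 without untreated replicate 1 and 0.0634 without TBI replicate 1. For Trp53 (-0.03) it gave -0.1037 to 0.0897, with 0.0355 without untreated replicate 2 and 0.0066 without TBI replicate 5, and the replicate block gave 0.18 and the libraries with Xist 0.0692. Where a value changed, the cause was not tested. At this depth 3 counts are worth up to 0.284 CPM, in TBI replicate 6.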
